A study of Bos taurus with 16 samples.

Results

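Red blood cell genes were examined in the skeletal muscle of 8 neonatal Hanwoo calves. The set holds 9 genes (HBB, HBA, HBM, ALAS2, SLC4A1, AHSP, EPB42, HEMGN and KLF1) among the 34109 genes listed in the count table, and all 9 were listed. The members were chosen by name, as genes of developing and mature red cells that could measure blood or reticulocytes left in the tissue, and no value of theirs entered the rule, although results of these data were known when the set was proposed. Counts were found in all 16 libraries for 3 members (HBB, HBA and AHSP) and in 1 to 15 libraries for 4 (ALAS2, KLF1, HBM and HEMGN). The remaining 2, SLC4A1 and EPB42, had 0 counts in every library.

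The study asked how overfeeding of the dam in mid to late pregnancy bears on the muscle of the newborn calf. Control dams received 100% of their nutritional requirement and treated dams 150%, and each diet is represented by 4 male Hanwoo calves. Round and sirloin muscle were taken from every calf straight after birth, before colostrum, and each muscle of each calf is 1 RNA-sequencing library. The calves were killed with pentobarbital and then bled, and the tissue was not sorted, so vessels and the blood left in them were sampled with the muscle fibres. Replicates 1 to 4 were calves 4, 5, 7 and 8 in the control group and calves 1, 2, 3 and 6 in the treated group, by the numbers in the labels.

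Red cells carry haemoglobin, a tetramer of alpha-type and beta-type globin chains that each hold a haem. They develop from erythroblasts under transcription factors such as GATA1 and KLF1, lose their nucleus, and become reticulocytes, which can enter the blood. Reticulocytes still hold mRNA, mostly of the globins, and lose it as they mature, so blood left in a tissue can add globin mRNA to it. How many reticulocytes the blood of these calves held cannot be told from these data. Before birth the main haemoglobin of cattle pairs alpha chains with a fetal gamma chain, which is replaced by the adult beta chain around and after birth. In a bulk sample, fewer red cells and less RNA per red cell cannot be told apart.

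Libraries held 44473011 to 72446933 counts, so that 3 counts, taken as the limit that a count of 0 allows, corresponded to 0.0414 to 0.0675 CPM, that is, counts scaled to a library of 1000000. The tissue carried high levels of muscle genes, with ACTA1, the skeletal actin, at a median of 28273 TPM (transcripts of a total of 1000000, scaled for transcript length) and CKM, the muscle creatine kinase, at 12435 TPM. The 9 members together took 1.38 to 11.7 CPM. The library kit named in the study's methods depletes ribosomal and globin transcripts, but the labels describe selection by poly(A) tail. Globin levels are therefore given as the libraries hold them, and how much globin RNA was taken out during preparation cannot be told from these data.

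HBB and HBA were the most abundant members, followed by AHSP and ALAS2, when levels were compared per transcript length. HBB, the adult beta chain, had a median of 4.85 TPM over the 16 libraries and a range of 1.18 to 21.5 TPM. HBA, an alpha chain, had a median of 4.18 TPM and a range of 0.687 to 8.98 TPM. AHSP, which binds free alpha chains and keeps them from precipitating, had a median of 0.621 TPM. ALAS2, the erythroid form of the first enzyme of haem synthesis, had a median of 0.0442 TPM and reached 0.432 TPM at most. By mean level, HBB stood above 68.8% of the 22877 genes with counts, HBA above 61.7%, AHSP above 44.4% and ALAS2 above 27.4%. For scale, MB, the oxygen-binding myoglobin of the muscle fibre itself, had a median of 1582 TPM.

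The other 5 members were at or near the limit that a count of 0 allows. KLF1, the transcription factor that switches on the adult beta gene, had 3 counts in round muscle of calf 4, 4 counts in sirloin of calf 7 and 0 in the other 14 libraries. HBM, a minor alpha-type globin, had 2 counts, and HEMGN, a nuclear protein of erythroid precursors, had 3 counts, both in sirloin muscle of calf 6 and nowhere else. SLC4A1, the anion exchanger band 3 of the red cell membrane, and EPB42, the membrane protein 4.2 bound to it, had 0 counts in all 16 libraries. At this depth each could have been present at up to 0.0414 to 0.0675 CPM, depending on the library. No fold change is given for these 5 genes.

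**Figure D1:**
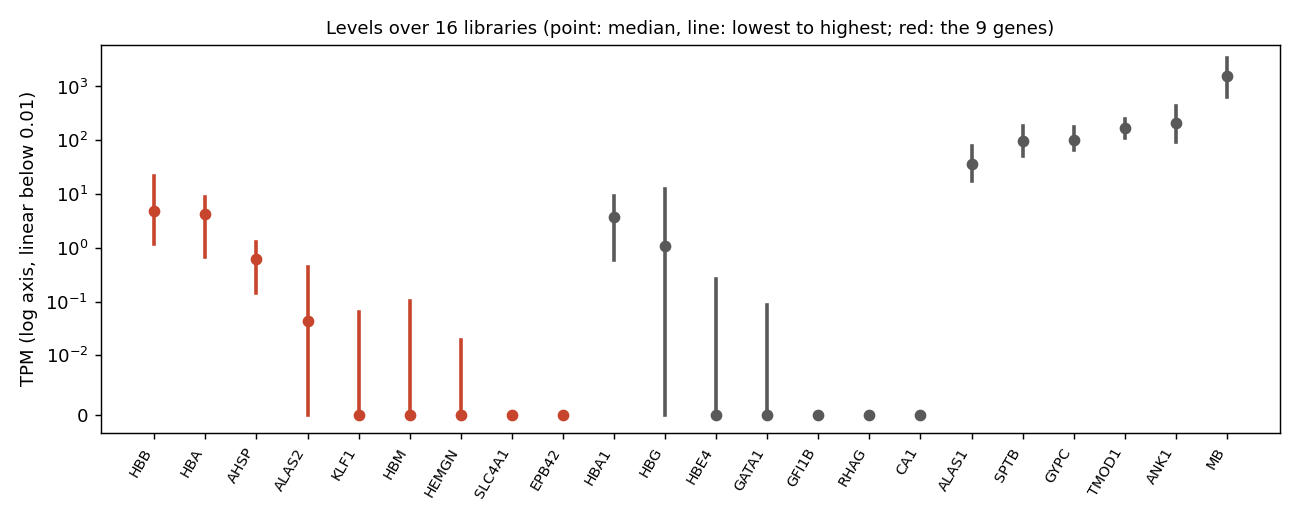
Levels of the 9 genes (red) and of other erythroid or muscle genes (grey) in TPM over 16 libraries, on a log axis that is linear below 0.01; points are medians and lines run from the lowest to the highest library. HBB and HBA lie in the range of single TPM units, 5 members sit at a median of 0, and SPTB, GYPC, TMOD1 and ANK1 stand near or above 100 TPM.

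Of the other genes of red cell formation, several known mainly from red cells had few or no counts, and many that muscle or most cells also use had counts in every library. Among other genes of the red cell membrane, RHAG, GYPB and KEL, carriers of red cell surface antigens or their partners, had 0 counts in all libraries. In contrast ANK1 had a mean of 222 TPM, TMOD1 172 TPM, GYPC 116 TPM and SPTB 97.1 TPM. ANK1, TMOD1 and SPTB encode ankyrin, tropomodulin and beta spectrin, which muscle fibres also use. XK and AQP1, at a mean of 20.8 TPM each, and ACKR1, at 0.812 TPM, had counts in all 16 libraries as well. Of the 15 listed genes of the red cell membrane, 9 had counts in all 16 libraries and 4 had 0 counts in every library.

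The transcription factors of the lineage ranged from 0 counts to counts in all libraries. GATA1, the master factor of the erythroid lineage, had 10 counts in all, spread over 3 libraries, and GFI1B had 0 counts. LMO2, TAL1 and LYL1, which endothelial cells also express, had counts in all 16 libraries, with means of 19.5, 1.79 and 1.72 TPM. NFE2, a factor of the erythroid and megakaryocyte lineages, and ZFPM1, the cofactor of GATA1, also had counts in all 16, with means of 0.341 and 1.34 TPM. All 11 further genes of haem synthesis had counts in all libraries. ALAS1, the form of the first haem enzyme used outside the erythroid lineage, lay between 17.2 and 78.9 TPM, against at most 0.432 TPM for ALAS2. CA1, the red cell carbonic anhydrase, had 0 counts, whereas CA2, which other tissues also express, had a mean of 44.2 TPM.

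HBB varied widely between calves of the same diet, from 0.429 to 7.92 CPM over the 16 libraries. In round muscle of the control calves its level was 3.92 CPM, here with library sizes scaled by TMM factors, in calf 4, 0.544 in calf 5, 1.53 in calf 7 and 1.70 in calf 8. In round muscle of the treated calves it was 2.10 CPM in calf 1, 0.617 in calf 2, 7.92 in calf 3 and 3.24 in calf 6. Calf 3 was the highest and calf 2 lay with the lowest controls, so that the groups overlapped. In sirloin muscle HBB stood at 2.59 CPM in calf 4, 0.429 in calf 5, 1.33 in calf 7 and 0.890 in calf 8 among the controls. Among the treated calves the sirloin level was 2.72 CPM in calf 1, 0.660 in calf 2, 2.90 in calf 3 and 5.93 in calf 6. Calves 5 and 2 were the lowest of their diets in both muscles, and the highest treated calf was calf 3 in round and calf 6 in sirloin.

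The group means of HBB ran in the order round treated (3.47 ± 3.16 CPM, SD, n = 4), sirloin treated (3.05 ± 2.17), round control (1.93 ± 1.43) and sirloin control (1.31 ± 0.928). Each neighbouring pair in that order differed by less than its SD. Treated against control, the log2 fold change of HBB was 0.87 with a standard error (SE) of 0.71 in round muscle (edgeR, adjusted p = 0.892). It was 1.22 with an SE of 0.66 in sirloin muscle (edgeR, adjusted p = 0.876). Calf 3 decided the round value: without its library the log2 fold change of HBB there was 0.06 with an SE of 0.68 (edgeR, adjusted p = 1.00). Without calf 6 the sirloin value was 0.69 (edgeR, adjusted p = 0.961), and without calf 4 the round and sirloin values were 1.49 and 1.78.

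HBA was low in 3 of the 4 control calves in both muscles. In round muscle of the controls its level was 1.83 CPM in calf 4, 0.259 in calf 5, 0.437 in calf 7 and 0.284 in calf 8. In round muscle of the treated calves it was 1.75 CPM in calf 1, 1.61 in calf 2, 2.56 in calf 3 and 1.75 in calf 6. Every treated calf thus lay above calves 5, 7 and 8 in round muscle, and the groups overlapped only through calf 4. For HBA1, the near-identical alpha gene, the round groups did not overlap, with calf 4 at 1.59 CPM and the lowest treated calf at 1.61 CPM. Every treated library lay above every control library in 0.687% of all genes tested in round. The sirloin groups of HBA1 did overlap, with control calf 4 at 1.47 CPM and treated calf 3 at 0.565 CPM. In sirloin muscle HBA was 1.36 CPM in calf 4, 0.295 in calf 5, 0.566 in calf 7 and 0.251 in calf 8 among the controls. Among the treated calves it was 1.67 CPM in calf 1, 2.36 in calf 2, 0.610 in calf 3 and 2.83 in calf 6. Calf 3, the highest calf for HBA in round muscle, was the lowest treated calf in sirloin, and calf 4 was again the highest control.

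The means of HBA were 1.92 ± 0.433 CPM in round treated, 1.87 ± 0.963 in sirloin treated, 0.702 ± 0.755 in round control and 0.618 ± 0.514 in sirloin control (SD, n = 4). The 2 treated groups did not differ beyond their spread, nor did the 2 control groups, and the step from sirloin treated to round control, 1.87 to 0.702 CPM, was larger than either SD. The log2 fold change for the diet was 1.48 with an SE of 0.63 in round muscle (edgeR, adjusted p = 0.864) and 1.59 with an SE of 0.63 in sirloin muscle (edgeR, adjusted p = 0.876). HBA was the only member under an unadjusted p of 0.05, 1 member in each muscle, against 4.41% of all genes tested in round and 3.91% in sirloin. Without calf 4 the log2 fold change of HBA was 2.58 in round muscle (edgeR, adjusted p = 0.314) and 2.32 in sirloin (edgeR, adjusted p = 0.973).

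AHSP, the chaperone of the alpha chains, lay between 0.166 and 1.03 CPM in the 16 libraries. In round muscle of the controls it was 0.722 CPM in calf 4, 0.492 in calf 5, 0.243 in calf 7 and 0.284 in calf 8. In round muscle of the treated calves it was 0.382 CPM in calf 1, 1.03 in calf 2, 0.347 in calf 3 and 0.773 in calf 6. Calf 3, which had the most HBB and HBA in round muscle, had the lowest AHSP of the treated calves there. In sirloin muscle AHSP was 0.558 CPM in calf 4, 0.697 in calf 5, 0.166 in calf 7 and 0.342 in calf 8, and in the treated calves 0.631 in calf 1, 0.840 in calf 2, 0.580 in calf 3 and 0.425 in calf 6. The groups overlapped in both muscles, and calf 2 was the highest in each. The log2 fold change of AHSP for the diet was 0.55 with an SE of 0.58 in round and 0.48 with an SE of 0.52 in sirloin (edgeR, adjusted p = 0.919 and 0.947).

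ALAS2 was measured by a handful of counts. Round muscle of the controls held 3 counts in calf 4, 4 in calf 8 and 0 in calves 5 and 7. Round muscle of the treated calves held 4 counts in calf 1, 8 in calf 2, 35 in calf 3 and 0 in calf 6. The 35 counts of calf 3 were the highest value of the 16 libraries, in the same library as the highest HBB. Sirloin muscle held 6 counts in calf 4 and 4 in calf 7 among the controls, and 12 in calf 1, 4 in calf 3 and 14 in calf 6 among the treated calves, with 0 in calves 5, 8 and 2. The log2 fold change of ALAS2 for the diet was 2.21 with an SE of 1.43 in round and 1.31 with an SE of 1.42 in sirloin (edgeR, adjusted p = 0.864 and 0.949). Without calf 3 the round value was 0.91 and without control calf 8 it was 2.96. Without control calf 4 the sirloin value was 2.37, and it was 0.81 at the lowest, without calf 1.

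**Figure D2:**
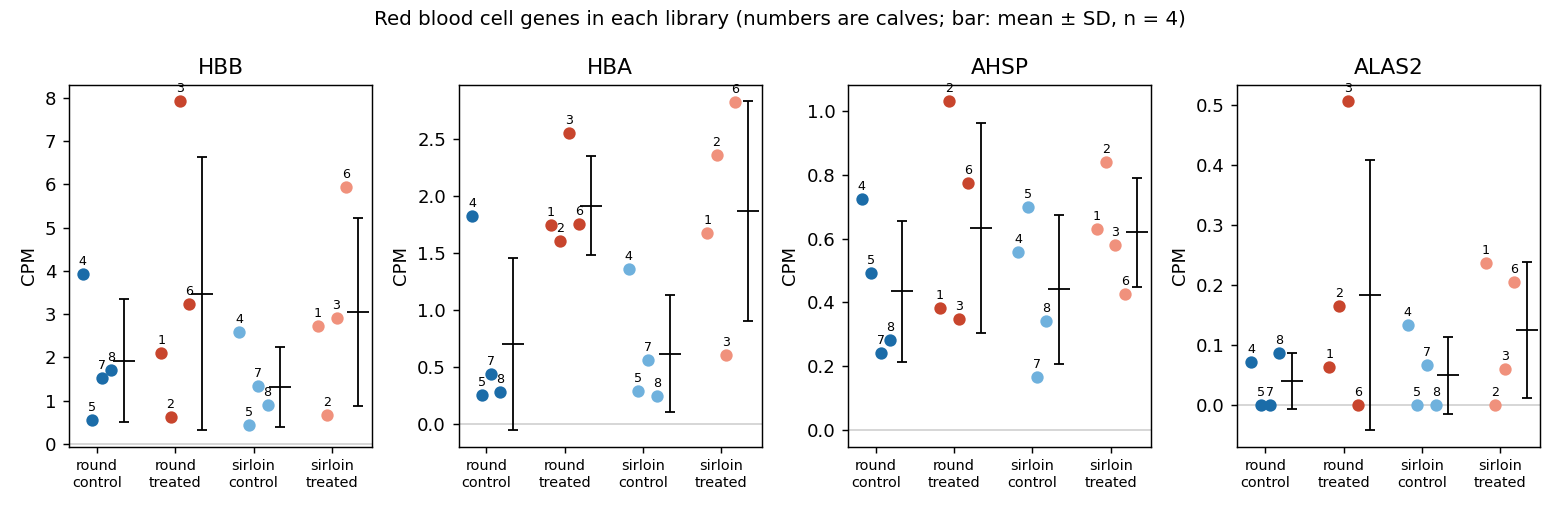
Levels of HBB, HBA, AHSP and ALAS2 in CPM in each library by muscle and diet; points are libraries, numbers are calves, and bars are the mean ± SD of 4 libraries. For HBA, every treated round library lies above control calves 5, 7 and 8, and control calf 4 (1.83 CPM) lies among the treated libraries.

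No member passed the test of the diet. In round muscle 0 of the 5 members with a count there were called at an adjusted p under 0.05 by edgeR, against 0.0185% of the 21677 genes tested. In sirloin muscle 0 of 7 were called, against 0.00918% of 21776 genes. DESeq2 and limma-voom called 0 members in either muscle as well. No member had every treated library above every control library, against 0.687% of all genes in round and 0.859% in sirloin. The summed level of the 9 members, mostly HBB and HBA, was 2.93 to 14.9 TPM in round control and 8.43 to 29.8 in round treated. In sirloin the sums did not overlap, at 2.99 to 10.8 TPM in control and 11.2 to 27.0 in treated libraries. HBB and HBA each overlapped between the diets in sirloin. The sum was not tested, and how often sums of other gene sets fail to overlap was not computed.

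No member passed the test between the muscles either. Over all 16 libraries 0 of 7 members were called between sirloin and round by edgeR (0 also before adjustment and by DESeq2), against 0.0612% of the 22877 genes tested, or 14 genes, a number that was 109 with the calf as a block. The log2 difference, sirloin minus round, was −0.37 with an SE of 0.53 for HBB and −0.11 with an SE of 0.46 for HBA (edgeR, adjusted p = 1.00 for both). For AHSP the difference was −0.00 with an SE of 0.38. The diet effect did not differ detectably between muscles: 0 of 7 members were called for the interaction by edgeR (0 also before adjustment and by DESeq2), against 0% of all genes. The interaction was 0.37 with an SE of 1.05 for HBB and 0.14 with an SE of 0.92 for HBA. These fits had no term for the calf, so their SEs ignore that both muscles came from the same calves. With the calf as a block the interaction was 0.50 with an SE of 0.48 for HBB and −0.15 with an SE of 0.60 for HBA. Sirloin minus round was then −0.27 for HBB and −0.1 for HBA, and again 0 members were called.

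HBB in a calf's round muscle was correlated with HBB in its sirloin, short of the threshold once adjusted. Across the 8 calves the log2 CPM of HBB in round and sirloin muscle correlated with Pearson r = 0.833 (exact permutation p = 0.0108, adjusted over 17741 genes 0.0955) and Spearman rho = 0.857 (exact permutation p = 0.0107). Without calves 3 and 5, the calves farthest from the median round level, r was 0.828, and with the diet means removed it was 0.834. Leaving out each calf in turn gave r between 0.752 and 0.896. Muscle samples of 1 calf resembled each other in many genes, since the median r over all genes was 0.527 and 28.5% of genes reached an r of 0.7, as HBB and HBA did.

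The other members had lower values of r. HBA had r = 0.781 (exact permutation p = 0.0430, adjusted 0.169) and rho = 0.571 (exact permutation p = 0.151). Without the low calves 5 and 8 together r of HBA was 0.393, and with diet means removed it was 0.545. Leaving out each calf in turn gave r between 0.695 and 0.957, the highest without calf 3. AHSP had r = 0.650 (exact permutation p = 0.0726, adjusted 0.216) and rho = 0.619 (exact permutation p = 0.115). Its r was 0.698 without calves 2 and 6, and 0.579 with diet means removed. Leaving out each calf in turn gave r of AHSP between 0.464 and 0.752. On log2 TPM (0.1 added) in place of log2 CPM, r of AHSP was only 0.3396 (exact permutation p = 0.413). ALAS2 had r = −0.152 (exact permutation p = 0.738, adjusted 0.832) and rho = −0.356 (exact permutation p = 0.381), with r = −0.243 without calves 3 and 7. None of these 4 members passed an adjusted p of 0.05, a threshold that 1.26% of genes passed.

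**Figure D3:**
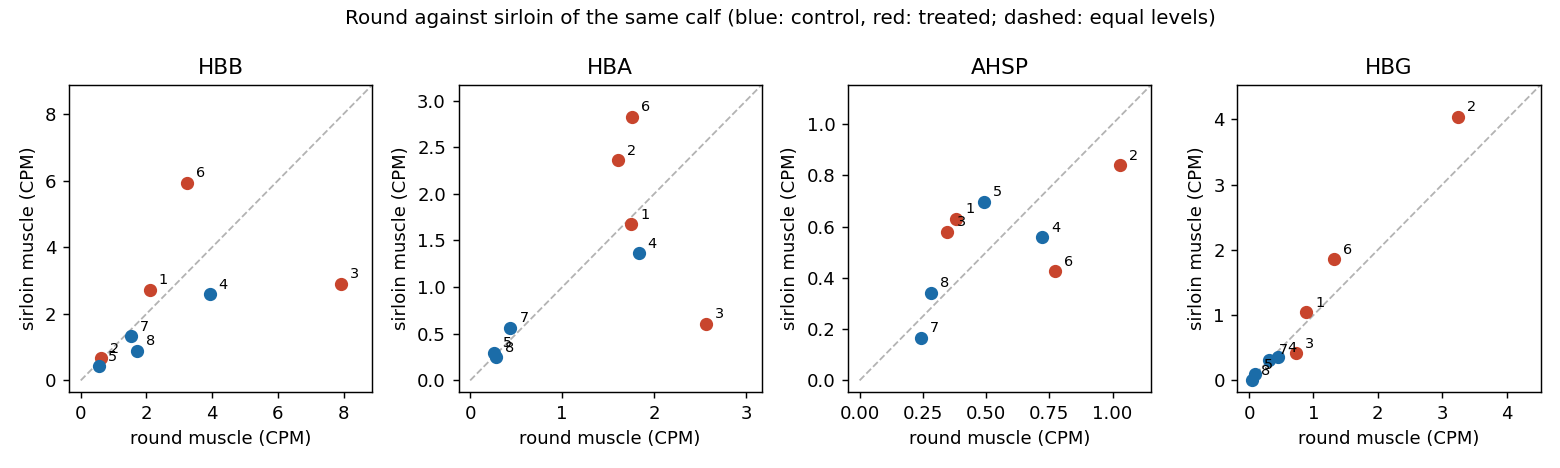
CPM in round muscle (horizontal) against sirloin muscle (vertical) of the same calf for HBB, HBA, AHSP and HBG; blue points are control calves, red points are treated calves, numbers are calves and the dashed line marks equal levels. Calf 3 lies far below the line for HBB (7.92 against 2.90 CPM) and HBA (2.56 against 0.610 CPM), and it lies below the line for HBG as well (0.723 against 0.417 CPM).

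Among the other globins, HBA1 followed HBA almost count for count. HBA1 encodes the other alpha chain, and reads that fit both copies may have been split between them, so that neither is certain by itself. Summed over all libraries HBA had 1141 counts and HBA1 1136, and their log2 levels correlated with r = 0.996 over 16 libraries, as a description. The embryonic beta-like genes HBE1 and HBE2 and the embryonic alpha-type gene HBZ had 0 counts, and HBE4 had 4 counts in sirloin muscle of calf 8 only.

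HBG, the fetal gamma chain, spanned the range from 0 to 4.04 CPM. In round muscle it was 0.457 CPM in calf 4, 0.0907 in calf 5, 0.316 in calf 7 and 0.0437 in calf 8 among the controls, and 0.892 in calf 1, 3.25 in calf 2, 0.723 in calf 3 and 1.32 in calf 6 among the treated calves. In sirloin it was 0.357 CPM in calf 4, 0.0938 in calf 5, 0.316 in calf 7 and 0 counts in calf 8, against 1.04 in calf 1, 4.04 in calf 2, 0.417 in calf 3 and 1.86 in calf 6. Every treated library lay above every control library in both muscles, as in 0.687% of all genes tested in round and 0.859% in sirloin. The log2 fold change of HBG was 2.80 with an SE of 0.76 in round (edgeR, adjusted p = 0.864) and 3.24 with an SE of 0.94 in sirloin (edgeR, adjusted p = 0.876), and it did not pass the test. Without calf 2, the highest calf, the values were 2.13 and 2.50 (edgeR, adjusted p = 0.930 and 0.982), and leaving out each calf in turn gave 2.13 to 3.40 in round and 2.50 to 3.70 in sirloin. Between the muscles of a calf HBG had r = 0.979 (exact permutation p = 4.96e-05, adjusted over all genes 0.0377) and rho = 1.00 (exact permutation p = 4.96e-05). Without calves 2 and 8 r was 0.949, and with diet means removed it was 0.951.

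The balance of fetal and adult beta-like chains differed widely between calves and little between the muscles of a calf. HBG made up 29.8% of the summed HBG and HBB counts in round and 27.7% in sirloin muscle of calf 1. In calf 2 the share was 84.0% in round (95% Wilson interval 78.1 to 88.6%) and 86.0% in sirloin (80.9 to 89.8%). Calf 2 was the calf with the least HBB among the treated, and the only calf with more HBG than HBB. The share was 8.36% and 12.6% in calf 3, 10.4% and 12.1% in calf 4, 14.3% and 17.9% in calf 5, 28.9% and 23.9% in calf 6, and 17.1% and 19.2% in calf 7, round and sirloin in turn. In calf 8 it was 2.50% in round and 0 of 39 counts in sirloin, which the Wilson interval bounds at 8.97%.

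Within a calf, sirloin minus round lay between −5.03 and 4.20 percentage points of HBG share, while the calves ranged from 2.50 to 84.0% in round muscle. Fisher's exact test of the counts in the 2 muscles gave an adjusted p of 0.651 or higher in each of the 8 calves, on counting error alone. Across the 8 calves the round and sirloin shares correlated with r = 0.992 and rho = 0.976 (exact permutation p = 4.96e-05 and p = 0.000397). Without calves 1 and 2 r was 0.914. The share was taken up after the values of HBG and HBB had been seen, as 1 measure beside the correlations above. By diet it averaged 37.8 ± 32.4% in treated and 11.1 ± 6.34% in control round muscle (SD, n = 4 calves), with treated calf 3 (8.36%) below 3 of the 4 control calves.

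**Figure D4:**
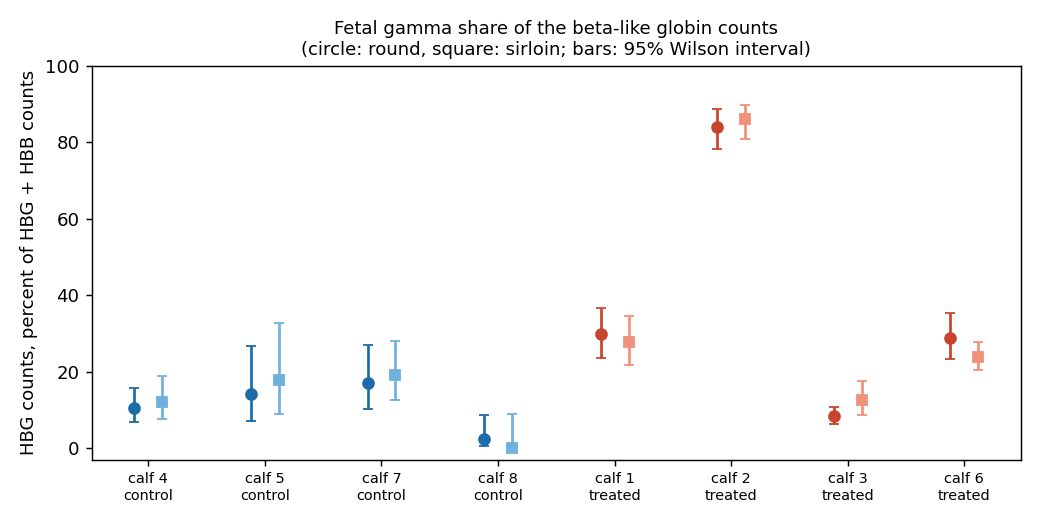
HBG counts as a percentage of HBG plus HBB counts in each calf; circles are round and squares sirloin libraries, blue control and red treated, with 95% Wilson intervals that cover counting error only. Both muscles of calf 2 lie above 80%, and both libraries of every other calf lie below 30%.

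Alpha and beta-like chains were also compared as a ratio within each library, where the alpha sum itself ran from 1.28 to 18.1 TPM. The TPM of HBA plus HBA1 divided by the TPM of HBB plus HBG lay between 0.324 (round, calf 8) and 1.25 (round, calf 1). The group means were 0.652 ± 0.291 in round control, 0.890 ± 0.265 in round treated, 0.869 ± 0.303 in sirloin control and 0.813 ± 0.314 in sirloin treated (SD, n = 4). The differences between groups were within the spread. In calf 2 the ratio was 0.897 in round and 1.08 in sirloin, although HBB itself was among the lowest, and HBG made up most of the beta-like sum.

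Over the 16 libraries the members did not all vary together. As descriptions over libraries that share calves, log2 HBB correlated with HBA at r = 0.587 and with ALAS2 at r = 0.645, but with AHSP at r = −0.166. HBA correlated with HBG at r = 0.873 and with AHSP at r = 0.401. The genes whose profile over 16 libraries was most like the mean profile of HBB and HBA were HBA1 (r = 0.879), EPS8L2 (0.840), BCKDHA (0.821), SELENOW (0.816), DDT (0.812), CHRDL2 (0.810), LOC112443862 (0.803), TRAPPC6A (0.801), THA1 (0.800) and LOC514257 (0.788), out of 12313 genes. The place of HBA1 largely follows from its near-identical counts to HBA, which is part of that mean profile. Apart from HBA1 none of the 10 was in the lists of red cell genes used here.

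The round library of calf 3, the highest of the 16 in HBB and ALAS2 and the second highest in HBA after sirloin muscle of calf 6, was also the highest in mRNAs of plasma proteins that liver makes. It held 451 counts of ALB (albumin), 3139 of FGB (fibrinogen beta chain), 278 of HPX (haemopexin) and 22 of TTR (transthyretin). APOA1 (apolipoprotein A1) differed from these: it was at 5.76 TPM in that library and highest, at 6.45 TPM, in sirloin muscle of calf 6. The summed level of ALB, APOA1, FGB, TTR and AFP was 36.0 TPM in that library and 1.84 to 14.5 TPM in the other 15, and AFP was at 0 in all 16. The second highest, 14.5 TPM, was sirloin muscle of control calf 5 with 191 ALB and 1138 FGB counts, where HBB was at its lowest, 0.429 CPM. Sirloin muscle of calf 6, with the second highest HBB (5.93 CPM), held 11 ALB and 81 FGB counts. Its sum was 7.25 TPM, of which APOA1 made up 6.45 TPM. The part of these mRNAs in the result of calf 3 was not tested.

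**Figure D5:**
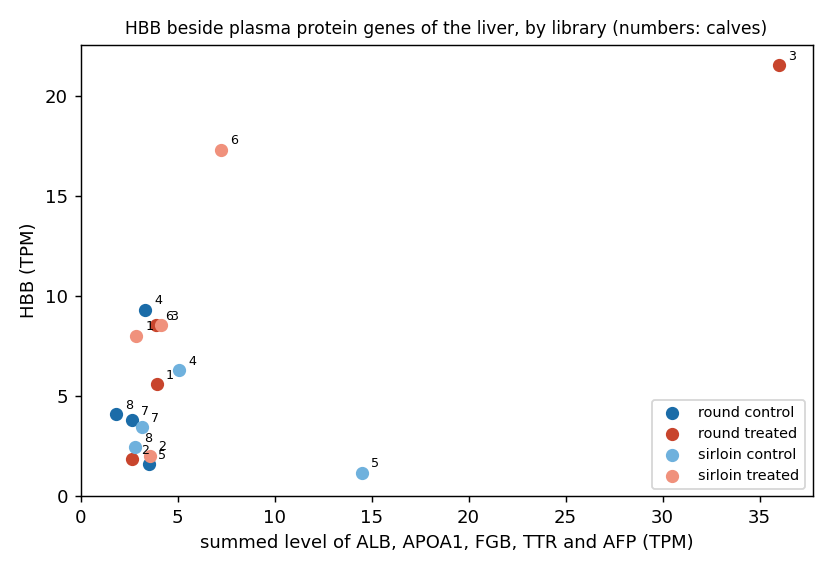
HBB in TPM (vertical) against the summed TPM of 5 plasma protein genes of the liver (horizontal) in each of the 16 libraries, coloured by muscle and diet, with calf numbers. Round muscle of calf 3 is highest on both axes (21.5 and 36.0 TPM), and sirloin muscle of calf 5 has 14.5 TPM of the liver genes with 1.18 TPM of HBB.

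Markers of the other blood cells were present at low levels. The summed level of 8 neutrophil genes, led by S100A12 (an antimicrobial calcium-binding protein), ranged from 4.90 to 22.0 TPM in round control and 5.88 to 22.4 in round treated, and from 2.34 to 17.8 TPM in sirloin control and 7.47 to 55.8 in sirloin treated. The 9 genes of lymphocytes and other leukocytes summed to 3.76 to 8.27 TPM, 3.31 to 12.3, 3.67 to 4.74 and 4.72 to 14.4 in the same order of groups. The 7 platelet genes summed to 2.57 to 7.66 TPM, 2.25 to 4.42, 2.11 to 4.77 and 3.00 to 4.39, with PPBP and GP6, both particular to platelets, at 0 counts in every library. Endothelial genes, led by PECAM1, summed to 50.5 to 83.7 TPM, 54.3 to 82.0, 51.8 to 66.8 and 53.6 to 91.2. These ranges overlapped between the diets in each muscle, and the part of these cells in the levels of the members was not tested.

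The lists of genes around the members held no called gene. For the diet in round and in sirloin, 0 genes were called by edgeR among the other globins, the erythroid transcription factors, the red cell membrane, haem synthesis, iron uptake, the late erythroid enzymes, erythropoietin signalling, the clearance of haem and haemoglobin, and the markers of platelets, leukocytes, endothelium, liver and muscle. The same held between the muscles and for the interaction. Over all genes tested, edgeR called 0.0185% for the diet in round, 0.00918% in sirloin, 0.0612% between the muscles and 0% for the interaction. With shares this small, 0 calls in short lists do not set these genes apart from other genes. HBA1 and HBG aside, every treated library lay above every control library for FECH in round and KIT in sirloin. Every treated library lay below every control library for MYB, of few counts, and ITGB3 in round. Over all genes, 149 lay above and 233 below in this way of 21677 in round, and 187 above of 21776 in sirloin. In round muscle the median log2 fold change for the diet was 1.04 over the 6 other globins tested, 0.20 over 8 transcription factors, 0.10 over 11 membrane genes, 0.14 over 11 haem synthesis genes, 0.01 over 5 iron uptake genes and −0.06 over 7 late erythroid genes. In sirloin muscle the same medians were 0.24, 0.05 over 7 transcription factors, −0.38, −0.22, −0.27 and −0.38. The other globins tested include myoglobin (MB) and cytoglobin (CYGB), which are not chains of haemoglobin. Their median is therefore not that of the red cell globins alone. Of the other globins tested, 6 were higher and 0 lower in treated round muscle, and 4 were higher and 2 lower in treated sirloin muscle.

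Genes that answer erythropoietin or clear haemoglobin were likewise not called. The 7 tested genes of erythropoietin signalling had a median log2 fold change of 0.49 in round and 0.34 in sirloin, while EPO, the hormone made in kidney and fetal liver, had 0 counts. The 6 clearance genes, among them HMOX1 (haem oxygenase) and CD163 (the macrophage receptor for haemoglobin), had medians of 0.52 and 0.22. The neutrophil genes had medians of 0.28 and 1.51, the other leukocyte genes 0.50 and 0.96, the platelet genes −0.12 and −0.34 and the endothelial genes −0.02 and 0.07. The 4 tested liver genes had medians of 3.38 in round and −2.51 in sirloin, and the 8 muscle genes 0.13 and −0.32. Among the liver genes, ALB and FGB counts lay mostly in single libraries. These were round muscle of treated calf 3 (451 ALB and 3139 FGB) and sirloin muscle of control calf 5 (191 ALB and 1138 FGB).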

How the data were processed

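RNA from round and sirloin muscle of 8 calves was sequenced, 1 library per muscle and calf. The authors deposited raw read counts per NCBI gene ID, and separately TPM values per gene for the same libraries. Per the labels the tools were STAR and featureCounts and the build ARS-UCD1.2, whereas the study's methods name HISAT2, Bowtie2 and StringTie, and the conflict was not settled. The deposited tables of fold changes and p-values were not used. Control replicate 2 had TPM values that summed to 1000000 in both muscles, against 999756 to 999858 in the others. Of 34109 IDs, 90.2% matched a symbol in RefSeq's ARS-UCD2.0 table, used for names only.

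Counts were tested with edgeR 4.0.16 (quasi-likelihood, TMM factors, genes with at least 1 count, two-sided, Benjamini-Hochberg over all genes, threshold 0.05) in R 4.3.3, treated against control in each muscle, and over 16 libraries in 4 groups for sirloin against round and the interaction. DESeq2 1.42.0, limma-voom (limma 3.58.1), other scalings, filters, blocks and left-out calves were alternatives. The scripts were tested on simulated data with 200 changed genes. There edgeR recovered 63% of them for the diet in round, 61% in sirloin and 85% between the muscles. It made 22, 17 and 10 false calls in turn, so that large changes can be missed. Levels of a calf's muscles were correlated as log2 CPM (prior count 2) by exact permutation in SciPy 1.17.1, over genes with counts in at least 8 of 16 libraries, a filter set after the data were seen. Their p was adjusted over all such genes, not over the members as first planned. The smallest p that 8 calves allow is 2.48e-05. Libraries with the same number in the labels were taken as 1 calf: their deviations from the group means correlated at 0.311 to 0.765. Replicate numbers across diets (−0.280 to 0.290) do not pair. The Wilson intervals and the limit of 3 counts cover counting error only, and mates may have been counted separately, since values of 2 counts were more frequent than values of 1.

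The members and lists were chosen with earlier results of these data known. Genes named are the members and some, but not all, of the leading genes of the lists by mean level. The 10 genes most like the mean of HBB and HBA (mean CPM of at least 1) are also named. HBG, the embryonic globins, zero-count genes, liver mRNAs, SPTB, XK, AQP1, ACKR1, GATA1, NFE2, ZFPM1, CA2 and CD163 were picked after their values were seen. The same holds for FECH, KIT, MYB and ITGB3. Some genes of the membrane list are not reported here by name.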

Additional observations from a re-analysis of the deposited data

Results flagged for a closer look

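In 2 of 20 groups of 4 libraries tested, counting each of several genes in each muscle and diet, 1 library stood far from the others, where chance gives about 1 in 20. HBA in round muscle of the control calves was highest in replicate 1 (calf 4), whose gap to the next library was 0.887 of the group's whole range. HBA in round muscle of the treated calves was highest in replicate 3 (calf 3), with a gap of 0.843 of the range. Calf 4 was again the highest control for HBA in sirloin muscle (1.36 CPM), whereas calf 3 was the lowest treated calf there (0.610 CPM).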

How the results depend on the processing

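The counts of called members were 0 in all 67 alternatives, the fits with a replicate block included (0 members called in round and in sirloin, and 0 between the muscles and for the interaction with the calf as the block). The numbers of genes called among all genes did change: from 4 to 46 with DESeq2 for the diet in round, from 2 to 13 in sirloin, and from 14 to 83 with DESeq2 and 109 with the calf block between the muscles. All diet log2 fold changes of HBB, HBA, AHSP and ALAS2 kept their sign. Of the single-gene values, 22 of 232 changed sign, all of them sirloin against round or the interaction, and the cause was not tested. With the calf as the replicate block the interaction was −0.15 for HBA and 0.08 for AHSP, and sirloin minus round 0.03 for AHSP. Without 1 calf at a time, the interaction ranged from −0.19 to 1.16 for HBB, −0.25 to 0.59 for HBA, −0.27 to 0.23 for AHSP and −2.01 to 0.59 for ALAS2. Sirloin minus round ranged from −0.65 to 0.03 for HBB, −0.26 to 0.12 for HBA, −0.13 to 0.13 for AHSP and −0.49 to 0.62 for ALAS2. The correlation of HBA between the muscles lost its unadjusted p under 0.05 without 2 calves (r = 0.393) and with diet means removed (r = 0.545). The correlation of AHSP fell from r = 0.650 on log2 CPM to 0.3396 on log2 TPM. Depth limits KLF1, HBM, HEMGN and ALAS2, which rest on a few counts.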
